A study of Mus musculus with 9 samples.

Results

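Long noncoding RNA genes make transcripts that are not annotated as coding for a protein, many of them spliced and polyadenylated much like messenger RNA. In liver libraries, 337 such genes reached a mean of at least 1 FPKM (fragments per kilobase of transcript, scaled to library size) over all 9 libraries. They were taken from 27945 genes with a count. The rule selected the genes whose transcript type in the authors' table contained lincRNA (intergenic), lncRNA or antisense, and 3337 genes carried such a type at any level. The members were thus chosen by their mean level over all libraries, so their levels are a description, while the differences between groups were not used to choose them. Just inside the limit lay 4732419C18Rik and Snhg11, both with a mean FPKM of 1, and 4931403E22Rik at 1.01. Just outside it lay Gm50340 at 0.994, Gm11419 at 0.991 and Gm40040 at 0.985.

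The libraries were made from polyadenylated RNA of mouse liver, 3 each from a control, a model and a treated group. The series title names gefitinib, an inhibitor of the epidermal growth factor receptor kinase, as the cause of the liver damage studied. The labels give neither the strain, sex, age, dose and time nor the agent the treated group received, and all 3 groups share only the tissue. The comparisons therefore set model against control livers, and treated livers against each of the 2. Since the labels name no animals, a p-value here measures only the spread between libraries, which may be technical.

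Transcripts of this kind work in several ways. Some, such as Neat1 and Malat1, stay in the nucleus and are found in nuclear bodies. Others carry small nucleolar RNAs (snoRNAs, guides for the modification of ribosomal RNA) or microRNAs in their introns or exons, so that the spliced transcript is partly a by-product. Antisense transcripts run across a protein-coding gene on the other strand, and several of those in liver lie at genes for hepatocyte transcription factors such as Hnf4a and Prox1.

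Library totals ran from 56440871 to 60665156 estimated counts. Markers of the labelled tissue were present, since the 9 hepatocyte markers with a count summed to 94600 to 109000 CPM (counts scaled to the library size) in control, 97400 to 101000 in model and 77200 to 93900 in treated libraries. The 10 endothelial markers summed to 313 to 342 CPM in control, 127 to 137 in model and 63.3 to 85.1 in treated libraries, and the 10 macrophage markers to 230 to 365, 353 to 426 and 826 to 971 CPM. The 10 stellate cell and fibroblast markers summed to 259 to 342, 196 to 231 and 440 to 519 CPM. The 6 erythroid markers summed to 652 to 948 CPM in control, 859 to 1980 in model and 347 to 585 in treated libraries, and the 5 adipocyte markers with a count to 557 to 1150, 403 to 1490 and 968 to 2250 CPM. The 7 skeletal muscle markers summed to 146 CPM in model replicate 1 and to 92.8 to 127 CPM in the 3 treated libraries, against at most 1.27 CPM in the other 5. None of these lists had every marker at 0, 1 of the 10 hepatocyte and 1 of the 6 adipocyte markers had no count, and the part of these cell types in the results below was not tested. Fewer cells of a type and less RNA per cell cannot be told apart in such bulk samples. As signs of RNA quality, transcripts annotated as retained introns held 2.95% to 3.48% of the counts, with overlapping groups. Mitochondrial genes held 6.53% to 7.01% in control, 7.24% to 7.68% in model and 6.13% to 7.22% in treated libraries. Every model library thus lay above all the others in this share, and its part in the results was not tested.

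The promoters of 4 members that the results turn on are shown first, because their transcripts fell in the treated livers. BC024386 is the most abundant member, Gm31583 and B930025P03Rik had the smallest p-values among the members that fell more than 4-fold, and Hnf4aos runs antisense to a hepatocyte transcription factor gene. Each sequence is from RefSeq on GRCm38.p6 and is read 5′ to 3′ on the gene's strand, with the 50 bases from the RefSeq start in capitals and the 250 bases before it in lower case.
BC024386 (chr7:140905771-140906070, plus strand): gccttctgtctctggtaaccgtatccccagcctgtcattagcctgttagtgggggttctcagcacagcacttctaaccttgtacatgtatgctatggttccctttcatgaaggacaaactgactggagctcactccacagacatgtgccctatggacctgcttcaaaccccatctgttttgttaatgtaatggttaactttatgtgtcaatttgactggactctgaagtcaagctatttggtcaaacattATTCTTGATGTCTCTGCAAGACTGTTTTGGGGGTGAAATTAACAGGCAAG
Gm31583 (chr16:24090016-24090315, minus strand): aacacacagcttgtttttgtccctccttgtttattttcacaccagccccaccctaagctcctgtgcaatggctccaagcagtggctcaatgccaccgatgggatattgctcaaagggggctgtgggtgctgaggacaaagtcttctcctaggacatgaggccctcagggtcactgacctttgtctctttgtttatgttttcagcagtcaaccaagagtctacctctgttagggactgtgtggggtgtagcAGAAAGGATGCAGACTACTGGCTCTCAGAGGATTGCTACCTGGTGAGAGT
B930025P03Rik (chr8:10882405-10882704, minus strand): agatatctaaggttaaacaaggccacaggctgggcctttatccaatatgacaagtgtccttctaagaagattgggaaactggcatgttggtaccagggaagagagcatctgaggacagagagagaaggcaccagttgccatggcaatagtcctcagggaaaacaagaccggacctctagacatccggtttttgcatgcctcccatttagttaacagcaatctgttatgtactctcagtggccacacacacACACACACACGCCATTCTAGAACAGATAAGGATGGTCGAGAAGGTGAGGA
Hnf4aos (chr2:163541672-163541971, minus strand): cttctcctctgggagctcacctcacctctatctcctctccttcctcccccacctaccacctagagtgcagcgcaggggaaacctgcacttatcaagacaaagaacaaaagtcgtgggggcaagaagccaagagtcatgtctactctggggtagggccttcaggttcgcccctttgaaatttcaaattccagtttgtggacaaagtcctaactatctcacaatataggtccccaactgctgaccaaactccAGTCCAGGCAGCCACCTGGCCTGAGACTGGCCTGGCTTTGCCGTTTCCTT
RefSeq promoters were found for 180 of the 337 members, and 114 of these had a RefSeq start within 100 bases of the start in the files. The promoters were searched on both strands for the E-box CACGTG, the antioxidant response core TGACNNNGC and the AP-1 site TGANTCA, and the 4 printed windows held none of the 3. Over all 32851 promoters of the same length, 7.15% held the E-box, 12.4% the antioxidant core and 7.81% the AP-1 site. Among the 29 members with a matched start that were lower in treated than in control livers, 0 held the E-box, 2 the antioxidant core and 2 the AP-1 site. A match, or its absence, describes only these letters in this window.

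Most of the 337 members were weakly expressed. Their median level was 1.96 FPKM, 172 lay under 2 FPKM and 33 reached 10 FPKM. The 10 most abundant held 36.8% of the FPKM summed over the members, and BC024386 alone held 15.4%. By annotation, 162 were intergenic, 146 antisense and 26 transcribed from a bidirectional promoter, 1 was typed as both intergenic and antisense, and Tug1 and Snhg11 carried a protein-coding transcript besides. Coordinates are those of the files. GENCODE M21, which annotates GRCm38, held 307 members with the same start and end, so the coordinates are of that build, and 8 of the members were typed there as protein-coding (Erdr1, Gm47283, Gm10644, Gm10762, C730034F03Rik, Gm10382, Gm10134 and Snhg11). The median gene span was 4944 bp and the median length of the most abundant transcript 951 nt. That transcript had 1 exon in 64 members and 2 exons in 118.

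Position relative to coding genes matters for these values, because the sources used here do not say whether counting used the strand. The span of 182 members overlapped no protein-coding gene, 147 overlapped one on the opposite strand, 5 on the same strand and 3 on both. Exonic bases were shared with the coding gene in 126 members, and in 17 of them at least 50% of the exonic bases. For those members reads of the 2 genes cannot be told apart without strand. In addition, 5 of 329 members searched had at least 50% of their main transcript in a near-identical copy elsewhere, at an identity of 95% or more, and their values are uncertain. These were Gm10076 (a copy of Rpl41), Gm47467 (Zfp825), Gm49207 (Ahsa1), Gm10874 (Got2) and Rps18-ps4 (Rps18). Rps18-ps4, highest by mean FPKM after BC024386 and AW112010, was listed at 245 CPM in model replicate 2 and 279 CPM in treated replicate 1 and at 0 in the other 7 libraries, and like Gm41821 it did not pass the filter on low counts. The remaining 335 members were tested.

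In treated compared with control livers the expressed long noncoding genes moved mainly down. In edgeR's quasi-likelihood test with Benjamini-Hochberg adjustment over 18113 genes, 84 of the 335 members tested fell (25.1%), where 8.47% of all genes tested were lower. Only 5 members rose (1.49%), where 9.36% of all genes tested were higher. Over the members the median log2 fold change was -0.57, against -0.01 over all genes tested, and 262 of 335 had a negative sign. Among protein-coding genes of at least 1 FPKM, 12.6% were higher and 12.4% lower, with a median of -0.01. All treated libraries lay below all control libraries in each of the 84 members that fell, which calling them on the same libraries largely fixes in advance. Their folds ran from 1.36 to 15 with a median of 2.495, 64 were at least 2-fold lower and 10 at least 4-fold. In 73 of the 84 the mean of the model libraries lay between those of the treated and control libraries, and in 11 it was at or above the control mean. Choosing members by a wide gap between treated and control libraries also favours a model mean between them. Neither count is therefore further support for the calls.

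**Figure D1:**
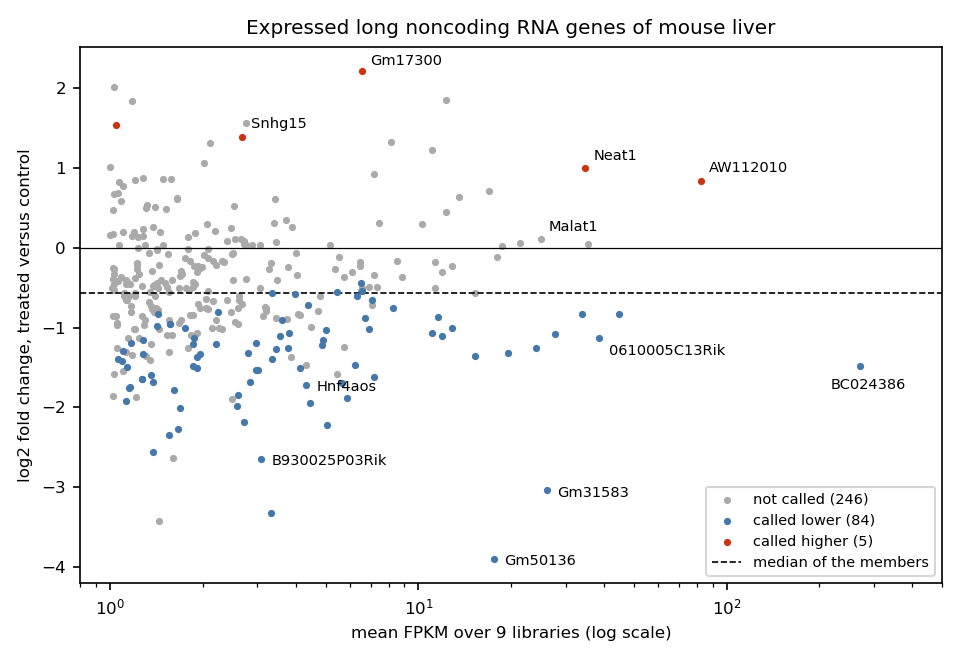
Each point is 1 of the 335 long noncoding RNA genes tested, with its mean FPKM over 9 libraries on a log axis and its log2 fold change in treated versus control livers. The 84 genes called lower lie at all levels down to the limit, the 5 called higher are few, and the dashed median lies at -0.57.

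By level, the share of members that fell was 17.5% of members from 1 to under 2 FPKM, 27.1% from 2 to under 5 and 41.2% from 5 FPKM upward. The same bins of protein-coding genes gave 8.07%, 9% and 16.4%. Of the noncoding genes of the same types that stayed under 1 FPKM, 1110 were tested, and 34 were lower and 19 higher, with a median log2 fold change of -0.42. A member that reached the limit only through the group where it was high would have been more likely to differ. In the 242 members with a mean of at least 1 FPKM in each of the 3 groups, 62 fell (25.6%) and 4 rose.

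**Figure D2:**
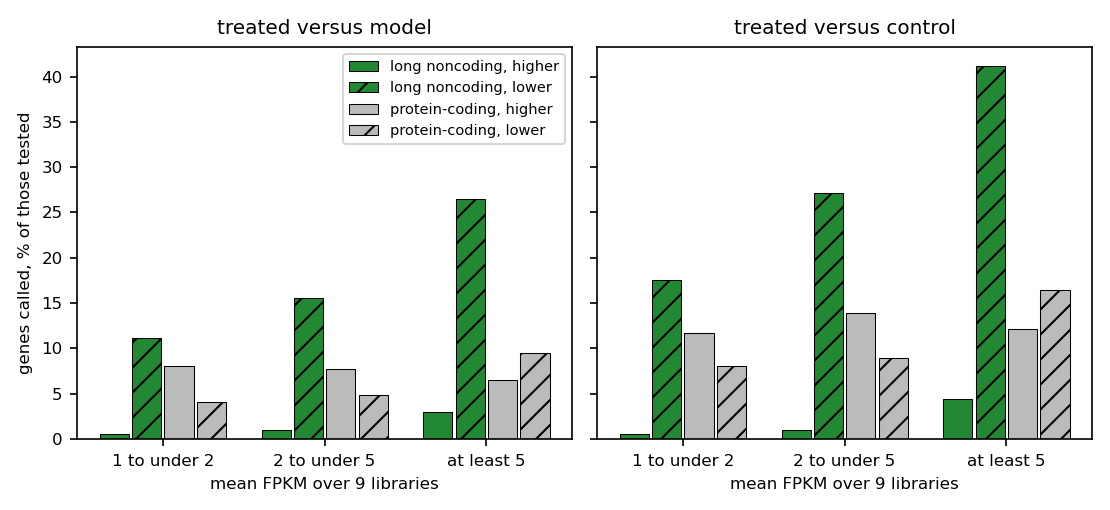
Bars give the percentage of genes tested that were called higher (plain) or lower (hatched) in treated versus model and treated versus control livers, for long noncoding and protein-coding genes in 3 bins of mean FPKM. Lower calls of the noncoding genes run from 17.5% to 41.2% in treated versus control livers, against 8.07% to 16.4% of the protein-coding genes.

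Members fell in each of the 3 large annotation classes, with and without a coding gene across from them. Of members that overlapped no coding gene 51 of 181 fell (28.2%), and of those with any overlap 33 of 154 (21.4%). Of the intergenic members 45 of 160 fell and 5 rose, of the antisense members 32 of 146 fell, and of those at bidirectional promoters 7 of 26 fell. Members whose main transcript had 1 exon fell in 18 of 64 cases and those with more exons in 66 of 271. Differences between these classes were not tested.

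Against model livers, too, more members were lower than higher in treated livers. With edgeR 52 were lower (15.5%, against 4.44% of all genes tested), and 4 were higher (1.19%, against 5.21%). The median log2 fold change was -0.43, where all genes tested had 0.01. The 44 members that were lower against both model and control make up 84.6% of the 52 and 52.4% of the 84, and both comparisons use the same treated libraries. Without model replicate 3, 33 members were lower and 0 higher. Without model replicate 1, the model library with muscle transcripts, 35 were lower and 0 higher. Over all genes the higher calls dropped as well, from 943 to 540 without model replicate 3 and to 525 without model replicate 1. The part of the muscle transcripts in this was not tested. Without treated replicate 1, 34 were lower. With limma on log2(FPKM + 0.1), where the median of all genes shifted to 0.15, 39 were lower and 9 higher, so that higher genes made up 18.8% of the member calls in place of 7.14%.

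Between model and control livers few members differed. With the edgeR test 3 of 335 fell (0.896%), close to the 0.596% of all genes tested, and 0 rose, where 0.519% of all genes were higher. At an unadjusted p under 0.05 there were 48 members in both directions together (14.3%, against 13.9% of all genes tested), and DESeq2 gave 12 members lower and 5 higher, beside 416 and 450 of all genes. The median log2 fold change was -0.19, against -0.001 over all genes tested. A negative sign was seen in 225 of 335 members, beside 9082 of 18113 genes tested. Without model replicate 1 or model replicate 3 no member passed the edgeR test, and without model replicate 2 1 did.

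The most abundant member, BC024386, is an intergenic gene at chr7:140906014-140907983 whose main transcript has 6 exons. It stood at 758, 649 and 781 CPM in control, 651, 528 and 593 CPM in model and 235, 301 and 247 CPM in treated libraries. Treated libraries were thus all below the others, while control and model overlapped. Its level was 2.8-fold lower in treated than in control livers (log2 fold change -1.48, SE 0.14, edgeR adjusted p = 7.93e-05) and 2.27-fold lower than in model livers (adjusted p = 0.000642). Its most abundant spliced transcript, of 851 nt, went from 178 ± 18.2 FPKM in control to 64.8 ± 25.4 FPKM in treated libraries (SD, n = 3). All members together held 0.43 ± 0.055% of the summed FPKM in control, 0.404 ± 0.0291% in model and 0.369 ± 0.0337% in treated libraries (SD, n = 3). In an exact two-sided permutation test, the difference between treated and control libraries did not pass (p = 0.2, where 0.1 is the smallest p that 3 against 3 allows). Without BC024386 the shares were 0.349 ± 0.0452% in control and 0.333 ± 0.0347% in treated libraries (exact p = 0.7).

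Gm31583, an intergenic gene at chr16:24085083-24090089, was the one member that fell in all 3 comparisons. Its libraries held 184, 289 and 204 CPM in control, 79.2, 81.6 and 71 CPM in model and 19, 28.5 and 35.1 CPM in treated livers. The 3 groups did not overlap. In model livers it was 2.92-fold lower than in control (adjusted p = 0.0167, edgeR), and in treated livers 8.2-fold lower (log2 fold change -3.04, SE 0.24, adjusted p = 7.26e-05). The model call was lost when any 1 of the 3 model libraries was left out (adjusted p up to 0.078), but the treated calls held in every setting tried. Its order across groups, control over model over treated, is that of the summed endothelial markers given above, of which 6 of 10 fell in model and 10 of 10 in treated compared with control livers, and their part in it was not tested. The nearest coding gene, Bcl6, a transcriptional repressor, lies 96231 bp away on the same strand and rose from 20.4 ± 7.31 CPM in control to 46.3 ± 0.914 CPM in treated libraries (SD, n = 3, edgeR adjusted p = 0.00648).

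A run of neighbours on chromosome 8 fell together. Gm32540, B930025P03Rik and Gm45044 lie one after another on the minus strand from chr8:10858750 to chr8:10891591, with 4235 and 1998 bases between them, and Irs2, which encodes an adaptor of the insulin receptor, is the nearest coding gene. B930025P03Rik stood at 19.9, 15.7 and 22 CPM in control, 9.71, 12 and 12 CPM in model and 2.89, 2.81 and 3.45 CPM in treated libraries. The groups did not overlap, and the treated level was 6.29-fold below control (log2 fold change -2.65, SE 0.18, edgeR adjusted p = 1.36e-05, the smallest of any member). Gm45044 had 3.14 ± 1.28 CPM in control and 0.31 ± 0.223 CPM in treated libraries (SD, n = 3, 10-fold lower, adjusted p = 0.0033), and Gm32540 had 6.41 ± 1.24 and 2.77 ± 0.398 CPM (adjusted p = 0.0074). Irs2 itself, 102227 bp from B930025P03Rik, went from 20.8 ± 3.41 to 15.1 ± 2.22 CPM and did not pass the test (adjusted p = 0.136). In all, 8 pairs of members lay within 5 kb of each other on 1 strand, and in 4 of them both members fell in treated compared with control livers, where 25.1% of all members tested fell. The chromosome 8 run itself supplies 2 of these 4 pairs, which share B930025P03Rik. Gm32540 and Gm45044 were picked out after their values were seen.

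**Figure D3:**
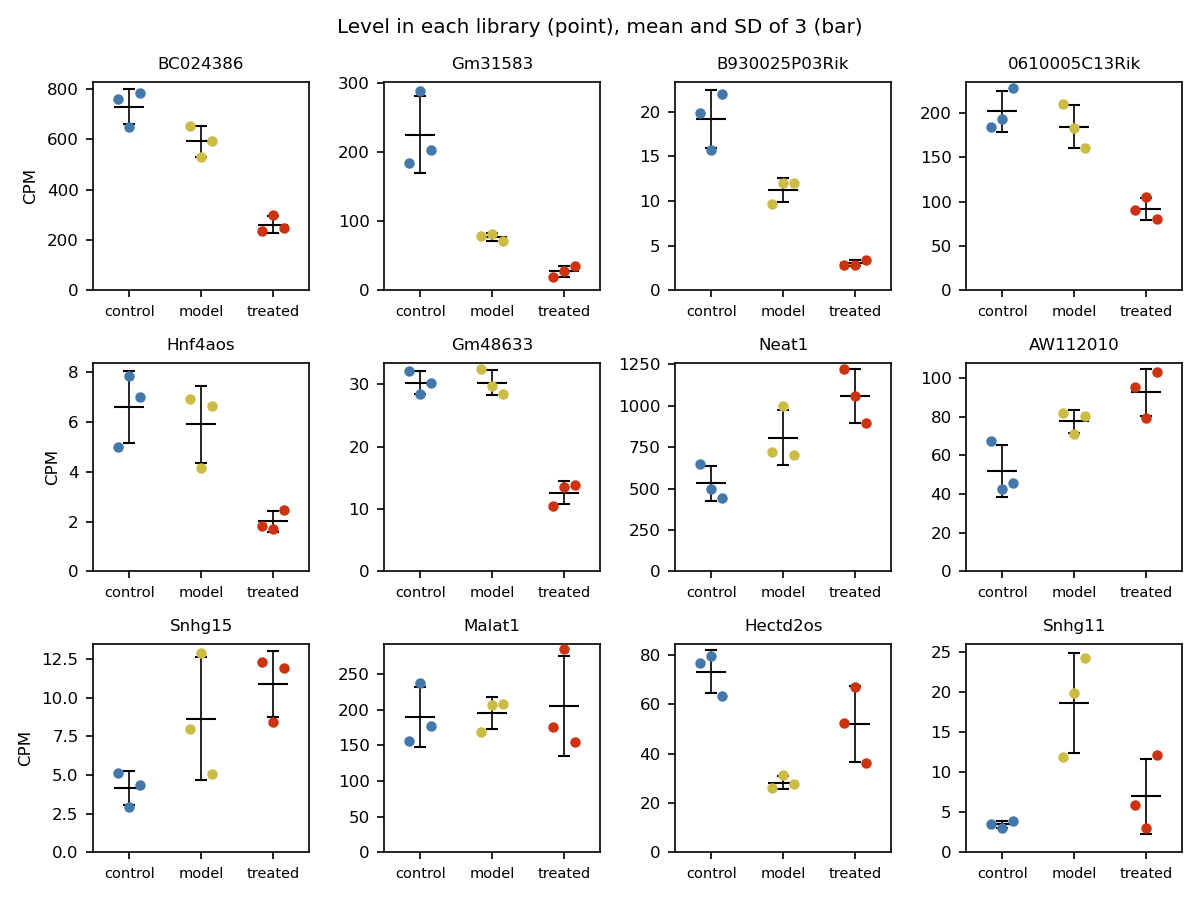
Points give the CPM of 12 members in each of the 9 libraries, and bars give the mean and SD of the 3 libraries of a group, on linear axes from 0. Gm31583 and B930025P03Rik step down from control to model to treated, BC024386, 0610005C13Rik and Hnf4aos fall in the treated libraries, Neat1 and AW112010 lie higher in treated than in control libraries, Malat1 overlaps in all groups and Hectd2os is lowest in the model libraries.

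Antisense partners of hepatocyte genes were among the members that fell. Hnf4aos runs on the minus strand at chr2:163493807-163541720 against Hnf4a, the gene of a master regulator of hepatocyte genes, and shares no exonic base with it. Its level was 4.99, 7.83 and 6.98 CPM in control, 6.93, 4.13 and 6.65 CPM in model and 1.83, 1.71 and 2.47 CPM in treated libraries. Treated libraries lay below all others, 3.29-fold under control (log2 fold change -1.72, SE 0.28, edgeR adjusted p = 0.00203) and 2.94-fold under model (adjusted p = 0.0065). Hnf4a had 637 ± 40.6 CPM in control, 502 ± 41.7 CPM in model and 653 ± 31.3 CPM in treated libraries (SD, n = 3), which differed by 0.04 on the log2 scale between treated and control (adjusted p = 0.871). In treated compared with model livers Hnf4a was higher by 0.38 on the log2 scale (adjusted p = 0.0497 with edgeR), a call lost in 13 of 16 settings, while Hnf4aos fell there. The span of Hnf4aos also overlaps R3hdml, a weakly expressed gene with a mean of 1.08 CPM in control livers, which had a log2 fold change of -2.41 in treated versus control livers and did not pass (edgeR adjusted p = 0.0582). Prox1os, opposite the hepatocyte transcription factor gene Prox1 and picked out after its values were seen, fell from 8.15 ± 1.99 to 2.95 ± 0.959 CPM (SD, n = 3, edgeR adjusted p = 0.0101), while Prox1 changed by -0.19 on the log2 scale (adjusted p = 0.431). Only 419 of the 46981 bases of the Prox1os span overlap Prox1, which had a mean of 89.4 CPM in control livers. The 2 genes share 133 exonic bases, where their reads cannot be told apart without strand.

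0610005C13Rik, a liver transcript on the minus strand at chr7:45567794-45575327, overlaps Bcat2, the mitochondrial aminotransferase of branched-chain amino acids. It stood at 184, 193 and 228 CPM in control, 210, 183 and 161 CPM in model and 90.3, 105 and 80.8 CPM in treated libraries. Treated libraries lay below all others, 2.19-fold under control (log2 fold change -1.13, SE 0.14, edgeR adjusted p = 0.000444). Bcat2 fell beside it, with a log2 fold change of -1.19 (adjusted p = 0.00074), and 17.4% of the exonic bases are shared. B430119L08Rik, opposite the alpha-1 antitrypsin gene Serpina1c, and Gm20319, opposite the interleukin receptor subunit gene Il1rap, likewise fell with their partners in treated compared with control livers. Their log2 fold changes were -1.08 and -0.83 (edgeR adjusted p = 0.00165 and 0.00162), beside -0.91 for Serpina1c and -1.1 for Il1rap. They share 429 and 552 exonic bases with these partners, and Serpina1c stood at 9040 ± 426 CPM in control libraries against 84.3 ± 10.2 CPM for B430119L08Rik (SD, n = 3), so that reads of the 2 genes cannot be told apart without strand. Their falls against model livers, with adjusted p-values of 0.0197 and 0.0185, were each lost in 4 or 5 of 16 settings.

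Over all 163 tested pairs of a member and a coding gene on the opposite strand, the log2 fold changes of treated versus control livers had a Spearman rho of 0.43. The 31 pairs without a shared exonic base had 0.23. In treated versus model livers the 2 values were 0.44 and 0.24. In model versus control livers they were 0.17 and 0.46, in the reverse order. These describe gene pairs of the same libraries, which share depth and any reads that counting could not assign. In 34 pairs the member fell, and the partner fell in 17 of them, did not pass the test in 15 and rose in 2. Where the member was not called, the partner fell in 22 of 129 pairs (17.1%), and of all genes tested 8.47% were lower. The partner rose in 9 of those 129. One of the members that fell while the partner rose was 1110002L01Rik, which fell with a log2 fold change of -1.33 while Kif3c, a kinesin gene with which it shares 2617 exonic bases, rose by 1.91 (edgeR adjusted p = 0.00312). Gm22146 fell by 2.56 on the log2 scale (adjusted p = 0.001), and Fkbp5, a glucocorticoid-induced chaperone gene across from it with no shared exonic base, changed by -0.03 (adjusted p = 0.975). These pairs were picked out after their values were seen.

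**Figure D4:**
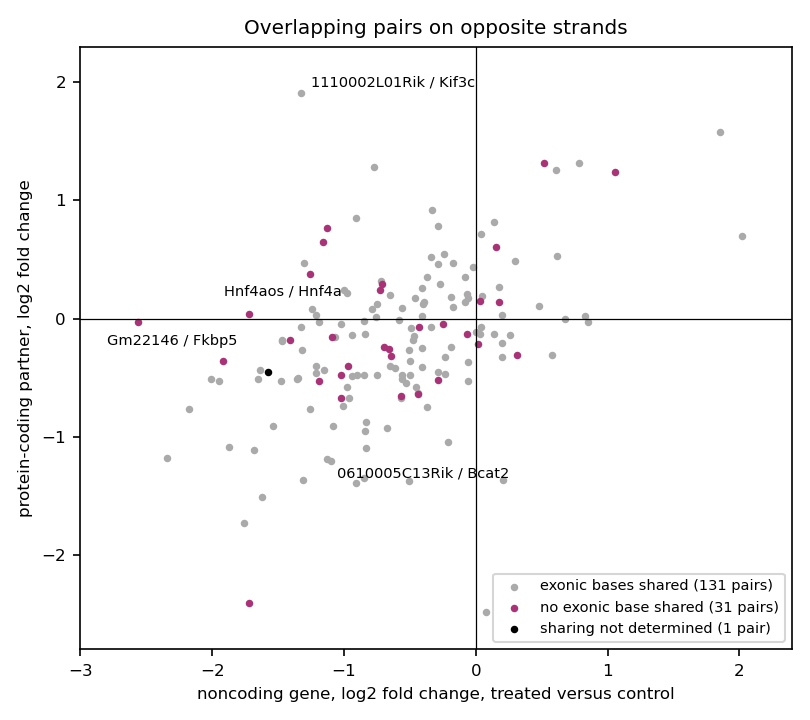
Each point is 1 of 163 pairs of a long noncoding gene (x axis) and the protein-coding gene it overlaps on the opposite strand (y axis), as log2 fold change in treated versus control livers, coloured by whether the pair shares exonic bases. The pairs of Hnf4aos with Hnf4a and of Gm22146 with Fkbp5 lie far left near a partner change of 0, and 0610005C13Rik lies on the same side as its partner Bcat2.

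Liver and metabolism transcripts, taken from a list of 8 symbols, gave 4 members. Of these 3 fell in treated compared with control livers (75%), among them Hnf4aos and 0610005C13Rik, and 0 rose. Lower calls made up 25.1% of all members tested and 8.47% of all genes tested. The listed member that did not pass, Gm16551, a transcript tied to the control of fat synthesis, had 26.8, 5.38 and 2.5 CPM in control, 12.5, 21.5 and 18.1 CPM in model and 3.65, 2.73 and 2.97 CPM in treated libraries. Control libraries spread over the range of the other groups, and no comparison passed (adjusted p = 0.168 for treated versus control with edgeR). Its neighbour Onecut1, a liver transcription factor gene 1787 bp away, was also uneven among control libraries, with 10.5 ± 11.7, 37.2 ± 14.9 and 3.11 ± 1.52 CPM (SD, n = 3). Gm15441 runs opposite Txnip and stayed just under the limit at a mean of 0.977 FPKM. It was lower by 3.22 on the log2 scale in treated than in control livers (SE 0.81, edgeR adjusted p = 0.0238). Its libraries held 2.02, 1.75 and 8.92 CPM in control and 0.631, 0.642 and 0.0787 CPM in treated livers. Control replicate 3 thus lay far above the other control libraries, and the treated values were near the floor. The median of the 7 listed genes tested was -1.87, against -0.01 over all genes.

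Some of the members named for their level or their p lie near a coding gene without overlapping it, and 3 of these are given here as examples. Gm48633 lies 27587 bp from Apob, the gene of apolipoprotein B. It stood at 32.1, 28.4 and 30.2 CPM in control, 32.4, 29.8 and 28.5 CPM in model and 10.5, 13.5 and 13.9 CPM in treated libraries. Control and model overlapped and treated lay 2.4-fold lower (log2 fold change -1.26, SE 0.13, adjusted p = 0.000137 with edgeR). Apob fell by 0.46 on the log2 scale (adjusted p = 0.026). B630019A10Rik begins 294 bp from St6gal1, a sialyltransferase gene, and fell 2.33-fold from 57 ± 6.8 to 24.5 ± 2.45 CPM (SD, n = 3, edgeR adjusted p = 0.000165), whereas St6gal1 changed by 0.4 on the log2 scale (adjusted p = 0.142). The single-exon gene 9130016M20Rik lies 1511 bp from A1cf, a cofactor of the editing of Apob RNA, on the same strand. It went from 148 ± 14.6 CPM in control to 82.9 ± 10.9 CPM in treated libraries (SD, n = 3, 1.78-fold lower, edgeR adjusted p = 0.00151), and A1cf was lower by 0.85 on the log2 scale (adjusted p = 0.0437, lost in 10 of 16 settings).

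The members with the smallest p-values in the treated livers included 3 further intergenic genes of unknown role. 2310001H17Rik fell 3.44-fold against control, from 20.4 ± 2.9 to 5.94 ± 0.162 CPM, with 14.4 ± 1 CPM in model libraries (SD, n = 3, edgeR adjusted p = 3.61e-05). Gm30262 fell 2.5-fold, from 21.1 ± 5.23 to 8.44 ± 0.279 CPM, and Gm37494 fell 1.95-fold, from 33.9 ± 2.93 to 17.4 ± 1.7 CPM (SD, n = 3, edgeR adjusted p = 0.000677 and 0.000378). In the latter pair the model means lay above those of control, at 24.1 ± 2.33 and 37.6 ± 3.05 CPM. The largest fold of all, 15-fold for Gm50136, came with wide spread: 144, 23 and 78.6 CPM in control against 0.748, 5.7 and 9.99 CPM in treated libraries (edgeR adjusted p = 0.0476). That gene was picked out after its values were seen.

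Among the nuclear RNAs, Neat1 passed the test and Malat1 and Tug1 did not. Neat1, the scaffold of nuclear paraspeckles, at chr19:5824708-5845478, stood at 651, 495 and 446 CPM in control, 721, 1000 and 701 CPM in model and 1220, 1060 and 895 CPM in treated libraries. Model and treated libraries all lay above control and overlapped each other. Neat1 rose 1.99-fold in treated compared with control livers (log2 fold change 1, SE 0.19, edgeR adjusted p = 0.00453), and the step from control to model, 1.52-fold, did not pass the test (adjusted p = 0.165). Both main transcripts contributed: the unspliced one of 20771 nt went from 20 ± 5.36 to 45.4 ± 8.74 FPKM, and the one of 3004 nt from 8.11 ± 3.44 to 27.4 ± 6.32 FPKM (SD, n = 3), though they share sequence and their division is an estimate. Malat1, its neighbour on the same chromosome and a component of nuclear speckles, had 190 ± 41.9, 195 ± 22.3 and 205 ± 69.8 CPM in control, model and treated libraries (SD, n = 3). Its groups overlapped and treated versus control gave a log2 fold change of 0.11 (SE 0.23, adjusted p = 0.806 with edgeR). Tug1, which binds chromatin regulators, gave a log2 fold change of -0.07 (adjusted p = 0.735). Of the nuclear and X inactivation list 3 of 9 tested genes were members. In treated compared with control livers 1 of these members rose (33.3%) and 0 fell, where 9.36% of all genes tested were higher and 8.47% lower.

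AW112010, second by mean level, is a transcript induced in immune cells by interferon. It stood at 67.4, 42.7 and 45.5 CPM in control, 82.1, 70.9 and 80.2 CPM in model and 95.6, 79.3 and 103 CPM in treated libraries. Every model and treated library lay above every control library. It rose 1.79-fold in treated compared with control livers (log2 fold change 0.84, SE 0.17, edgeR adjusted p = 0.00655), and the 1.5-fold step from control to model did not pass (adjusted p = 0.138). Macrophage markers were highest in the same treated libraries, with 4 of 10 higher than in control, while lymphocyte markers summed to 3.85 to 12.4 CPM in every library, and their part in AW112010 was not tested.

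The calls among host genes of snoRNAs were a share near that of all genes. Of 20 listed host genes 14 were members, and in treated compared with control livers 1 rose and 1 fell (7.14% each, beside 9.36% and 8.47% of all genes tested), and their median log2 fold change was -0.15, against -0.57 over all members. In the other comparisons 0 of the 14 passed the edgeR test. Snhg15 rose, from 5.11, 2.94 and 4.37 CPM in control to 12.3, 8.46 and 11.9 CPM in treated libraries, with model libraries at 8, 12.9 and 5.04 CPM across both ranges. The change was 2.62-fold (log2 fold change 1.39, SE 0.33, edgeR adjusted p = 0.0157) and was lost without control replicate 2 or treated replicate 1 (adjusted p up to 0.0603). Epb41l4aos fell 1.99-fold, from 8.78 ± 1.5 to 4.4 ± 1.26 CPM (SD, n = 3, edgeR adjusted p = 0.0268), a call lost in 5 of 16 settings. Gas5, the host gene with the highest mean FPKM, held 80.4 ± 9.2, 74.4 ± 18.1 and 81.6 ± 24 CPM in control, model and treated libraries (SD, n = 3), with overlapping groups.

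Snhg11 showed a different course that did not pass the test. It stood at 3.54, 3.02 and 3.94 CPM in control, 11.9, 19.9 and 24.3 CPM in model and 5.9, 3.01 and 12.2 CPM in treated libraries. All model libraries lay above all control libraries, a 5.34-fold difference (log2 fold change 2.42, SE 0.49) with an edgeR adjusted p of 0.0624, which passed in 5 of 16 other settings. Snhg1, Snhg5, Snhg6, Snhg8, Snhg12, Snhg16, Snhg17, Snhg18, Snhg20 and Zfas1 did not pass in any comparison, with log2 fold changes of treated versus control livers from -0.34 in Zfas1 to 0.67 in Snhg18.

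Many snoRNA host genes are known for starts with a C followed by a run of pyrimidines, which ties the spliced RNA to translation. Start windows of 5 host genes are shown to let such starts be seen, with 10 bases before the RefSeq start in lower case and the first 30 bases from it in capitals (RefSeq, GRCm38.p6).
Snhg8 (chr3:123508307-123508346, minus strand): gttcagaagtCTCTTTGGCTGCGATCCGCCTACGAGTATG
Snhg1 (chr19:8723477-8723516, plus strand): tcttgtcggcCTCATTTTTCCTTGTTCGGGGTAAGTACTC
Snhg12 (chr4:132308668-132308707, plus strand): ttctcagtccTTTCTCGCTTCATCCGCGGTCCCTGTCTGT
Zfas1 (chr2:167062924-167062963, plus strand): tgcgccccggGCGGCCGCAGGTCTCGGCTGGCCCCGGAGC
Snhg15 (chr11:6528731-6528770, minus strand): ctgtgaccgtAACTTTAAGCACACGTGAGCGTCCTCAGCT
Read strictly, as a C and 4 pyrimidines in the first 5 bases, 1 of 9 host genes with a matched start had it (Snhg8). So did 8 of 114 members and 2.51% of all promoters searched. A matched start could lie up to 100 bases from the start in the authors' annotation. That distance was 68 bases for Snhg8, 55 for Snhg12, 19 for Snhg15, 12 for Snhg1 and 0 for Zfas1. The bases read here may therefore not be the first bases of the measured transcripts. Snhg8 stood at 11.9 ± 2.26 CPM in control and 10.5 ± 1.66 CPM in treated libraries (SD, n = 3), and Snhg1 at 20.5 ± 3.62 and 18.8 ± 1.64 CPM.

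**Figure D5:**
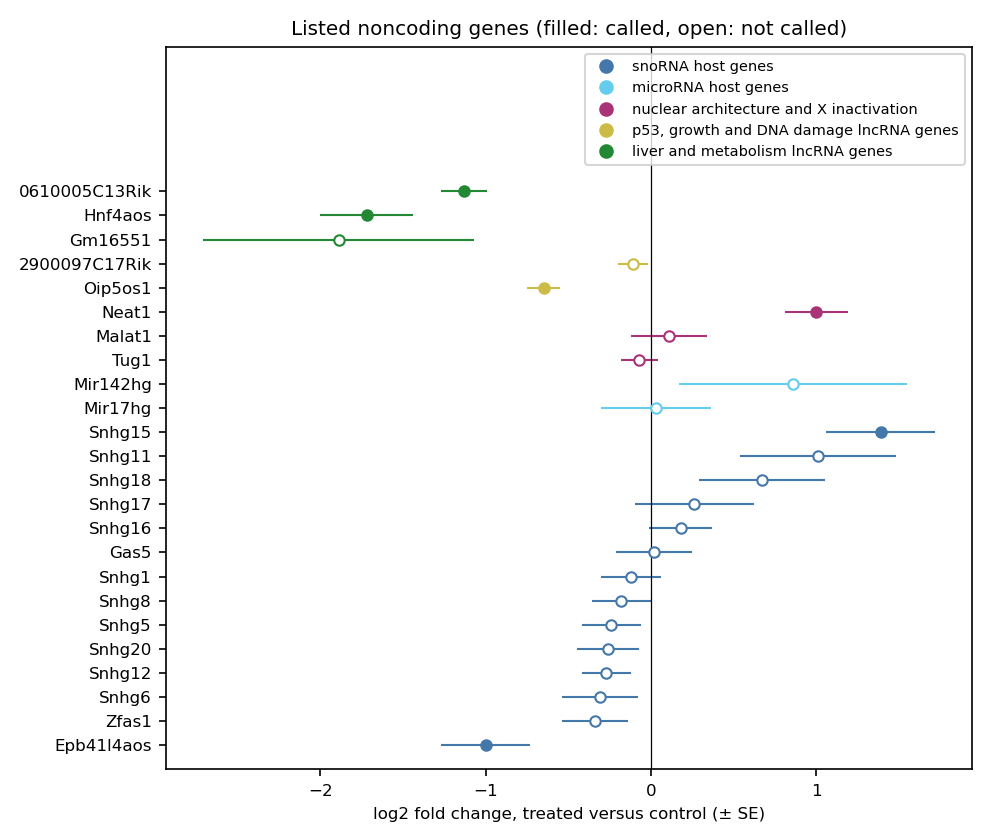
Points give the log2 fold change in treated versus control livers, with its SE, of 24 of the members on the lists of snoRNA hosts, microRNA hosts, nuclear, p53 and growth, and liver transcripts. Among the points shown, the filled ones, which passed the test, are Hnf4aos, 0610005C13Rik, Oip5os1, Neat1, Snhg15 and Epb41l4aos.

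Growth and p53 related transcripts gave 1 lower call among 4 members in treated compared with control livers (25%). That is near the share of all members tested, 25.1%, beside 8.47% of all genes tested. Oip5os1, a conserved transcript known for its site for a microRNA, stood at 82.2, 82.5 and 74.3 CPM in control, 66.3, 67.3 and 78.7 CPM in model and 51, 51.4 and 49.7 CPM in treated libraries. Treated libraries lay below all others and close to each other, and the 1.57-fold fall was small (log2 fold change -0.65, SE 0.1, edgeR adjusted p = 0.00118). 2900097C17Rik, the mouse Norad gene, whose RNA sequesters Pumilio proteins, had 107 ± 3.48 CPM in control and 99.1 ± 2.14 CPM in treated libraries (SD, n = 3) and did not pass (adjusted p = 0.433 with edgeR). The microRNA host genes Mir17hg and Mir142hg passed in no comparison, and no imprinted transcript on the list reached the limit.

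Other members that rose were few. Gm17300 stood at 4.7, 3.69 and 6.79 CPM in control, 3.15, 5.23 and 3.59 CPM in model and 9.45, 20.4 and 40.6 CPM in treated libraries. All treated libraries lay above the rest and were spread widely, and the gene rose 5.88-fold against model and 4.64-fold against control (edgeR adjusted p = 0.0213 and 0.0209). The call against model was lost in 4 of 16 settings (adjusted p up to 0.0919), the fit of those 2 groups alone and the fits without model replicate 1, 2 or 3. The call against control was lost in 3 of 16 (adjusted p up to 0.0825), the fit of those 2 groups alone and the fits without control replicate 1 or 2. Gm10134, typed as protein-coding in GENCODE M21, rose 2.9-fold against control, from 1.1 ± 0.284 to 3.2 ± 0.261 CPM (SD, n = 3, adjusted p = 0.017, edgeR), a call lost without control replicate 2 or control replicate 3 (adjusted p up to 0.0632). Gm11827, which lies 29433 bp from Trp53inp1, a p53 target gene, rose 5.05-fold against model livers (adjusted p = 0.0472, lost in 8 of 16 settings), and Trp53inp1 rose from 40.8 ± 6.38 to 222 ± 59.9 CPM (SD, n = 3, edgeR adjusted p = 0.000347). Gm49201 was 2.36-fold higher in treated than in model livers (adjusted p = 0.0283, lost in 6 of 16 settings) and its difference from control did not pass (adjusted p = 0.623). Leaving out control replicate 2 left 2 members higher in treated than in control livers, and leaving out control replicate 1 gave 8.

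Hectd2os was the one member that moved in opposite directions. This antisense transcript at chr19:36614052-36705641 stood at 76.6, 79.5 and 63.2 CPM in control, 26.1, 31.2 and 27.6 CPM in model and 52.5, 66.9 and 36.1 CPM in treated libraries. Model libraries lay below all others, and treated overlapped control. It fell 2.58-fold in model compared with control livers (log2 fold change -1.37, SE 0.2, edgeR adjusted p = 0.0128) and was 1.83-fold higher in treated than in model livers (adjusted p = 0.0214), and both contrasts use the model libraries. The first call was lost without model replicate 1 or model replicate 3 (adjusted p up to 0.0641), and the second also without treated replicate 1 (up to 0.0862). Hectd2, the ubiquitin ligase gene with which it shares 46.1% of its exonic bases, passed in neither comparison (adjusted p = 0.339 and 0.406). A330023F24Rik, across from Cd46, was the remaining member that fell in model livers, from 19.4 ± 4.21 to 10.8 ± 1.28 CPM (SD, n = 3, edgeR adjusted p = 0.0415), a call lost in 12 of 16 settings.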

How the data were processed

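Polyadenylated RNA of 9 liver libraries in 3 groups was measured. Estimated counts of genes and transcripts, and FPKM of both, were deposited by the authors, per the file headers. HISAT2, a spliced aligner, is named without a version in the submitters' processing notes, while the program that counted, its handling of strand and the gene models used are not given in the sources at hand. The deposited estimated counts are whole numbers that equal FPKM times length times 1 constant per library, within 1 count, in 98.89% to 99.05% of transcripts, so they are estimates from coverage and needed no rounding.

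Totals were 56440871 to 60665156 counts. Gene counts were tested with edgeR 4.0.16 (R 4.3.3) in quasi-likelihood fits over all 9 libraries with TMM scaling. The filter filterByExpr (minimum count 10, minimum total 15) left 18113 genes, and calls were made in each of 3 comparisons where the p adjusted over these genes (Benjamini-Hochberg) was under 0.05. The procedure was tested on simulated counts. In the simulation of model versus control (17461 genes) 34 of 98 planted 2-fold and 62 of 92 planted 4-fold changes were called, in that of treated versus model (17477 genes) 37 of 99 and 64 of 94, and in that of treated versus control (17447 genes) 38 of 97 and 55 of 96, with 7, 7 and 3 false calls. CPM are on TMM-scaled sizes, as mean ± SD of 3 libraries. Near-identical copies were sought in GENCODE M21 transcripts.

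The members, lists and tests were chosen with earlier results of these data known. By rule, named members are the 10 with the highest mean FPKM, the 8 with the smallest p per direction and comparison, the listed ones, those nearest the limit and those that reversed, each with overlapping coding genes or the nearest one within 5 kb. Bcl6, Irs2, Apob and Trp53inp1 lie farther away and were picked after values were seen. A few items that the rule names are left out. Alternatives were RLE scaling, no filter, DESeq2 1.42.0, limma-voom and limma 3.58.1 on log2(FPKM + 0.1), a replicate block, fits of 2 groups, narrower member sets and each library left out.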

Additional observations from a re-analysis of the deposited data

How the results depend on the processing

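Under RLE scaling, DESeq2, limma-voom, no low count filter and fits of 2 groups, more members were lower than higher in both comparisons of treated livers. The number higher in treated versus control livers was 10 with DESeq2, 8 with limma-voom and 12 with limma on log2 FPKM, and in treated versus model livers 7 with DESeq2 and 9 with limma on log2 FPKM. That last scaling moved the median of all genes to 0.152 and 0.182 on the log2 scale, beside member medians of -0.24 and -0.368. In model versus control livers DESeq2 gave 5 higher and 12 lower, no filter 5 lower and fits of 2 groups 1 higher and 5 lower. With the replicate block 1 member was higher in model versus control livers, 2 were higher and 40 lower in treated versus model livers and 73 lower in treated versus control livers. Libraries of the same number showed no sign of pairing. Their deviations from the group means correlated at -0.0756 to 0.0716, beside -0.0603 to 0.0634 for libraries of different numbers. Such weak correlations cannot decide whether equal numbers share an animal or batch, and the labels do not say. Narrower member sets give smaller counts by construction: at a mean of at least 2 FPKM 33 were lower against model and 54 against control livers, and without any overlap 30 and 51, with 1 in model versus control livers.

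With 1 library left out at a time, 0 to 2 members were higher and 0 to 3 lower in model versus control livers, 0 to 5 and 33 to 48 in treated versus model livers, and 2 to 8 and 63 to 78 in treated versus control livers. The difference in the share of summed FPKM between model and control libraries, -0.0256 percentage points, ran from -0.0523 to 0.00261, and the sign turned without control replicate 1. The cause of these shifts was not tested. With 3 libraries a group and estimated counts, changes of weakly expressed members may not be detectable at this depth.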
